A study of Mus musculus with 160 samples.

Results

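The receptors for VEGF, the angiopoietins and the BMP/TGF-beta ligands were followed through 4 groups of single cells, from endothelium that is about to form blood to blood progenitors that no longer belong to a vessel wall. The set was chosen by name and holds 10 of the 23420 genes in the table: the VEGF receptors Kdr, Flt1 and Flt4, the angiopoietin receptor Tek with its partner Tie1, and the BMP/TGF-beta receptors Eng, Acvrl1, Bmpr2, Tgfbr1 and Tgfbr2. All 10 were present in the table, and each was read in 160 cells of C57BL/6 background.

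The cells came from pluripotent stem cells in which doxycycline switches on Runx1 and Hoxa9, written as Runx1-p2a-Hoxa9 and placed at the Rosa26 locus, and every group shares this insertion. The 65 induced hematopoietic endothelial cells (iHECs) were sorted as CD31+CD41lowCD45-c-kit+CD201high. Induced hematopoietic progenitor cells (iHPCs) are what iHECs became on OP9-DL1 feeder cells, stromal cells that carry a Notch ligand. Of these, 21 were taken at day 14 and 18 at day 17 after 3 and 6 days of maturation, both as CD45-positive, lineage-negative cells, and 56 at day 21 after 10 days, as Ter119-CD45+c-kit+CD127+ cells. The early culture before the iHEC stage contained BMP4 and VEGF, which are themselves ligands of these pathways. Per the methods, it was then replaced by a medium listed without them, which was used up to the iHEC sort. Sort gate and day changed together from iHECs to day 14 and from day 17 to day 21. In the first of these steps the medium also changed and the feeder cells were added. The parts of what changed together cannot be told apart in these steps, whereas day 14 and day 17 shared a gate. None of the 10 receptors was a sort marker.

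The labels assign no cell to a culture or experiment. Each group was therefore treated as a sample of its own without replicates, differences between groups are given with no test, and the spread given is the SD between cells. TPM (a transcript's share of the library, a level corrected for transcript length, with a fixed total for each cell) allows levels of different genes to be set side by side. A cell was counted for a gene above 1 TPM, and the interval beside a share is the exact Clopper-Pearson 95% interval, which covers counting error only. A value of 0 may be a transcript lost before amplification rather than one that the cell lacks, and no read depth can be recovered from such values. Genes above 1 TPM numbered from 3309 to 7533 in iHECs (median 4926), from 3103 to 9333 at day 14 (median 8200), from 6536 to 9658 at day 17 (median 8101) and from 3188 to 7950 at day 21 (median 6695.5). By these medians, more genes were seen per iHPC than per iHEC.

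The group labels were read against marker lists. Of 12 endothelial markers, iHECs had between 4 and 12 above 1 TPM (median 11), and the iHPCs had at most 5. Cdh5, the cadherin of endothelial junctions, passed 1 TPM in 63 of 65 iHECs and in none of the 95 iHPCs. Of 8 blood markers, the median was 1 in iHECs and 8 in each iHPC group. Ptprc, which encodes the sort marker CD45, was above 1 TPM in 1 iHEC, and it was not above 1 TPM in 2 day-14, 1 day-17 and 1 day-21 cells. Of 8 stromal markers, 64 of 65 iHECs had none above 1 TPM, whereas 12 of 21, 16 of 18 and 46 of 56 iHPCs had at least 1, most often Pdgfrb. The summed stromal level reached 14.5 TPM in iHECs and 36.6, 116 and 85.3 TPM in the iHPC groups by day, and Col3a1 and Lum were above 1 TPM in no cell.

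As background, VEGF receptors are tyrosine kinases that drive the formation, survival and sprouting of endothelium, with Kdr as the main signalling receptor, Flt1 as a high-affinity receptor that often acts as a trap, and Flt4 as the receptor for VEGF-C. Tek (Tie2) binds the angiopoietins and steadies the vessel wall, and Tie1 is a relative that pairs with it. BMP and TGF-beta ligands gather a type II receptor kinase, such as Bmpr2 or Tgfbr2, with a type I receptor kinase, such as Acvrl1 (ALK1) or Tgfbr1 (ALK5), and these phosphorylate SMAD proteins. Eng (endoglin) is a co-receptor that presents BMP9, BMP10 and TGF-beta to such complexes in endothelium.

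The genes lie at separate places in the mouse genome (GRCm38, GENCODE annotation), and TPM sums reads over the exons of each. Kdr is at chr5:75932827-75978458 on the minus strand, Flt1 at chr5:147561604-147726011 on the minus strand and Flt4 at chr11:49609263-49652739 on the plus strand. Tek is at chr4:94739289-94874976 on the plus strand and Tie1 at chr4:118471191-118490061 on the minus strand. Eng is at chr2:32646595-32682669, Acvrl1 at chr15:101128522-101145336, Bmpr2 at chr1:59763400-59879014 and Tgfbr1 at chr4:47353222-47414931, all on the plus strand. Tgfbr2 is at chr9:116084293-116175360 on the minus strand. The longest protein-coding transcript ran from 3422 bases for Eng to 12899 bases for Bmpr2. Gene-level values do not separate the membrane form of Flt1 from its secreted short form.

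The 250 bases before the transcription start are shown for 4 receptors that were above 1 TPM in most iHECs, 1 or more from each ligand system, and for Tgfbr1, which took the opposite course. They were taken from RefSeq (GRCm38.p6), run 5′ to 3′ on the gene's strand, and lie at chr5:75978456-75978705, minus strand (Kdr), chr5:147726012-147726261, minus strand (Flt1), chr4:94739039-94739288, plus strand (Tek), chr2:32646345-32646594, plus strand (Eng) and chr4:47352972-47353221, plus strand (Tgfbr1). Capitals mark GGAA, the core that ETS factors bind, on either strand, and likewise AACAAT, a core of SOX factors.
Kdr: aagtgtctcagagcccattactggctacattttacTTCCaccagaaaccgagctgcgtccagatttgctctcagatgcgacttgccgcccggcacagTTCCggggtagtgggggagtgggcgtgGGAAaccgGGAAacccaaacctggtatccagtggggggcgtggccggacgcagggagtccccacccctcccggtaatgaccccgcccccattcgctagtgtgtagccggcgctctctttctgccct
Flt1: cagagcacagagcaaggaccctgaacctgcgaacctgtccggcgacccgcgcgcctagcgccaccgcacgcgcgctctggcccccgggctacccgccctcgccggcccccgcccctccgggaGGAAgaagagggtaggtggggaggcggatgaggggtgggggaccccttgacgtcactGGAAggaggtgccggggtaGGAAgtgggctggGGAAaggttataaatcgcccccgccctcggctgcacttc
Tek: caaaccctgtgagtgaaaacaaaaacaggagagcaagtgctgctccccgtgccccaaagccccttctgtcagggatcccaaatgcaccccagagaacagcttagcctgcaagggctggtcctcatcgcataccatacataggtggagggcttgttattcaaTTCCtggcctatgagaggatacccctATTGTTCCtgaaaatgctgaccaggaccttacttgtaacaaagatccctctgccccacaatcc
Eng: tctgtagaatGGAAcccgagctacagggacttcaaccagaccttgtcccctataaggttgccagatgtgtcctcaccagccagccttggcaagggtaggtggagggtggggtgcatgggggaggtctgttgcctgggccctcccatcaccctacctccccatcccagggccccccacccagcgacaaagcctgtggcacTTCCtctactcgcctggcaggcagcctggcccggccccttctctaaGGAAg
Tgfbr1: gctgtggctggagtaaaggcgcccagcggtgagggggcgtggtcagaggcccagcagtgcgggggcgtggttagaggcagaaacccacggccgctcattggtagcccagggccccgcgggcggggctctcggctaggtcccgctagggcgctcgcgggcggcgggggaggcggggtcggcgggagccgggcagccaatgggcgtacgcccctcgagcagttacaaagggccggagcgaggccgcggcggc

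Kdr and Flt1 each held 4 copies of GGAA in these windows, Eng held 3, Tek held 2 and the Tgfbr1 window shown held 0. GGAA occurs in 93.4% of 32851 promoter windows of the same length, so its presence is common to nearly all genes. AACAAT was found in Tek, where it overlaps a GGAA on its reverse strand by 2 letters, and in no other of the 9 members with a window, against 9.42% of all windows. GATAAG, a core for factors of the Gata family, was in none of the 9 and in 6.55% of all windows. The E-box CACGTG was likewise in none, against 6.02%. Tgfbr1 has a further annotated start with 5 copies of GGAA. No window was given for Acvrl1. A match of letters is a description of the sequence and not a measured binding site.

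In iHECs Kdr was the most widely detected member, and the other VEGF receptors were also found in most cells. Kdr was above 1 TPM in 63 of 65 cells (96.9%, interval 89.3 to 99.6%), Flt4 in 59 (90.8%, 81.0 to 96.5%) and Flt1 in 52 (80.0%, 68.2 to 88.9%). Kdr ran from 0.125 to 467 TPM with a median of 106 TPM, and it was not listed at 0 in any iHEC. Flt1 ran from 0 to 450 TPM with a median of 47.1 TPM and was listed at 0 in 5 cells. Flt4 ran from 0 to 180 TPM with a median of 50.2 TPM and was listed at 0 in 2 cells. Every iHEC had at least 1 of the 3 above 1 TPM, and 48 of 65 (73.8%, 61.5 to 84.0%) had all 3. The most frequent gap was Flt1, which was missing from 9 cells that had both others. Kdr was the highest of the 3 in 43 iHECs, Flt1 in 12 and Flt4 in 10.

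The angiopoietin receptors were present in as many iHECs as Flt1. Tek was above 1 TPM in 52 of 65 cells (80.0%, 68.2 to 88.9%), with a range from 0 to 397 TPM and a median of 86.2 TPM. Tie1 was above 1 TPM in 53 of 65 (81.5%, 70.0 to 90.1%), with a range from 0 to 543 TPM and a median of 63 TPM. Both were present in 41 iHECs, Tek alone in 11, Tie1 alone in 12 and neither in 1. Among the 64 cells with either, Tek was the higher in 39 and Tie1 in 25.

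Among the BMP/TGF-beta receptors, the endothelial members led. Eng was above 1 TPM in 59 of 65 iHECs (90.8%, 81.0 to 96.5%), from 0 to 808 TPM with a median of 91.8 TPM, and its highest cell was the highest value of any of the 10 receptors. Acvrl1 was above 1 TPM in 47 (72.3%, 59.8 to 82.7%), from 0 to 329 TPM with a median of 32.9 TPM. Tgfbr2 was above 1 TPM in 42 (64.6%, 51.8 to 76.1%), from 0 to 169 TPM with a median of 23.2 TPM. Tgfbr1 was above 1 TPM in 20 (30.8%, 19.9 to 43.4%), with a median of 0 and a highest value of 53.3 TPM. Bmpr2 was above 1 TPM in 6 (9.23%, 3.46 to 19%), with 1 cell at 138 TPM and a median of 3.81 TPM over those 6.

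The mean of log2(TPM + 1) ordered the receptors in iHECs as Kdr (6.12 ± 1.97), Eng (5.66 ± 2.56), Tek (5.09 ± 2.90), Flt4 (4.84 ± 2.14), Flt1 (4.82 ± 2.82), Tie1 (4.74 ± 2.69), Acvrl1 (4.06 ± 2.97), Tgfbr2 (3.38 ± 2.70), Tgfbr1 (1.24 ± 1.89) and Bmpr2 (0.33 ± 1.13, all as SD between 65 cells). Within a cell, each neighbour in this order differed from the next by less than the SD of that difference between cells. The widest step was from Tgfbr2 to Tgfbr1, 2.14 with an SD of 3.30, and Tgfbr2 was the higher in 45 cells and Tgfbr1 in 12. The steps between Tek, Flt4, Flt1 and Tie1 were between 0.02 and 0.25.

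**Figure D1:**
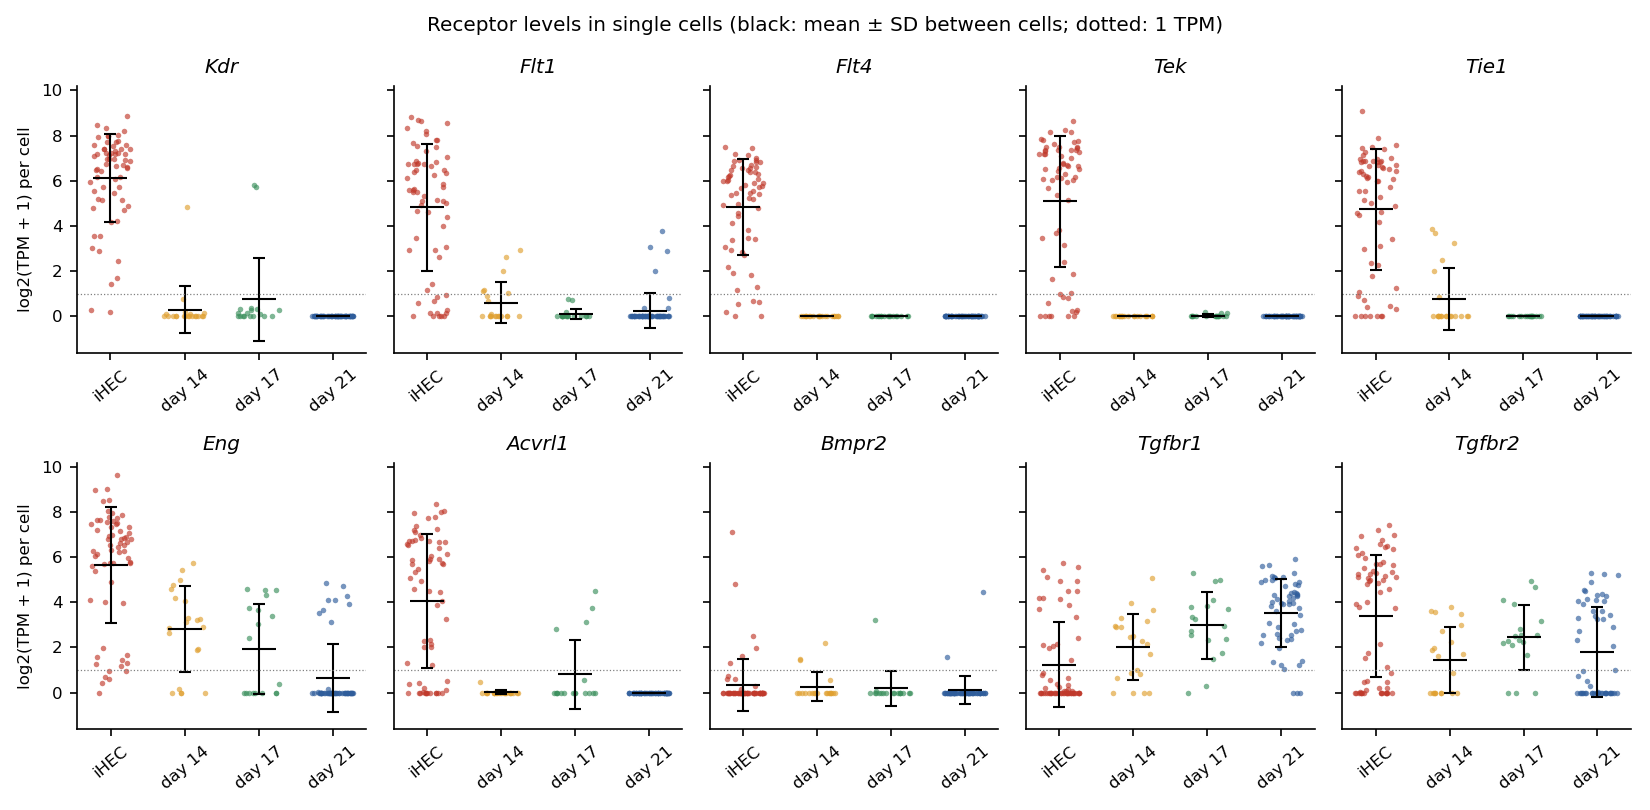
Level of each receptor as log2(TPM + 1) (vertical axis) in every cell of the 4 groups (horizontal axis: 65 iHECs and 21, 18 and 56 iHPCs of day 14, 17 and 21). Each point is a cell, black bars are the mean ± SD between cells, and the dotted line is 1 TPM. Kdr, Flt1, Flt4, Tek, Tie1, Eng and Acvrl1 are high in iHECs and low or at 0 in most iHPCs, whereas the mean of Tgfbr1 is lowest in iHECs (1.24) and highest at day 21 (3.55).

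Between iHECs and day-14 iHPCs, 7 of the 10 receptors were lower by at least 2 in mean log2(TPM + 1), a 4-fold change on that scale, and none was higher by as much. The background was the set of 9674 genes that passed 1 TPM in over 30 of the 160 cells. Of these, 5.63% were lower by as much and 25.7% higher, and the median gene was higher by 0.93. Of the 10 receptors, 9 are among those genes, all but Bmpr2. The differences were −5.83 for Kdr, −5.09 for Tek, −4.84 for Flt4, −4.22 for Flt1, −4.04 for Acvrl1, −3.97 for Tie1 and −2.85 for Eng. For the 3 others the differences were −1.93 (Tgfbr2), −0.06 (Bmpr2) and 0.78 (Tgfbr1). The 7 receptors were thus lower while the median gene was higher and while more genes were seen per day-14 cell. The median over the 10 receptors was −4.01.

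Flt4 and Tek were not found above 1 TPM after the iHEC stage. Flt4 was listed at 0 in each of the 95 iHPCs, and Tek was above 1 TPM in none of them, with a highest value of 0.127 TPM at day 17. A count of 0 allows a share of up to 14.3% at day 14, 16.7% at day 17 and 5.36% at day 21. Of the 8 receptors above 1 TPM in at least 50% of iHECs, these 2 were above 1 TPM in no iHPC. Among all 4440 genes above 1 TPM in at least 50% of iHECs, 0.586% were above 1 TPM in none of the 95 iHPCs.

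Kdr was still above 1 TPM in 3 iHPCs, which stood apart from their groups in other genes too. At day 14 it was above 1 TPM in 1 of 21 cells (4.76%, interval 0.120 to 23.8%), at 27.6 TPM. That cell also had Cldn5, an endothelial tight-junction gene, at 106 TPM beside Ptprc at 67.5 TPM, and with 3103 genes above 1 TPM it was the sparsest of all 160 cells. At day 17 Kdr was above 1 TPM in 2 of 18 cells (11.1%, 1.38 to 34.7%) at 55.4 and 51.4 TPM, against a median of 106 TPM in iHECs. The same 2 were the only cells of the 160 with Pdgfra above 1 TPM (3.25 and 5.03 TPM), and they also had Col1a1 at 45.2 and 8.98 TPM. Both are stromal genes, and the first of these cells had Ptprc at 0.275 TPM and the other at 50.6 TPM. Without these 2 cells, Kdr was above 1 TPM in no day-17 cell and the difference from day 14 to day 17 changed from 0.46 to −0.17. The part of stromal RNA in these values was not tested. Counted above 0 TPM instead, Kdr was in 28.6% of day-14 cells and 55.6% of day-17 cells. At day 21 Kdr was listed at 0 in all 56 cells.

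Flt1 and Tie1 were found at low level in a minority of iHPCs. Flt1 was above 1 TPM in 6 of 21 day-14 cells (28.6%, 11.3 to 52.2%), at 1.03 to 6.57 TPM, all below the iHEC median of 47.1 TPM. It was above 1 TPM in none of 18 day-17 cells and in 4 of 56 day-21 cells (7.14%, 1.98 to 17.3%), the highest at 12.8 TPM. Tie1 was above 1 TPM in 5 of 21 day-14 cells (23.8%, 8.22 to 47.2%), at 2.96 to 13.4 TPM, and was listed at 0 in every day-17 and day-21 cell. None of these cells had Kdr and Flt1 together, and none had Tek. Whereas 65 of 65 iHECs had at least 1 of Kdr, Flt1, Flt4, Tek and Tie1 above 1 TPM, 10 of 21, 2 of 18 and 4 of 56 iHPCs did so.

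Eng, the co-receptor, declined in steps. It was above 1 TPM in 59 of 65 iHECs, in 16 of 21 day-14 cells (76.2%, 52.8 to 91.8%), in 9 of 18 day-17 cells (interval 26 to 74%) and in 9 of 56 day-21 cells (16.1%, 7.62 to 28.3%). Its mean log2(TPM + 1) was 5.66 ± 2.56, 2.81 ± 1.89, 1.93 ± 2.01 and 0.65 ± 1.51 in that order. Each interval overlaps that of the next group, by less than 3 percentage points for the last step, whereas those of iHECs and day-21 cells are separate. The cells that still had Eng at day 21 had values from 7.76 TPM to 27.9 TPM, all below the iHEC median of 91.8 TPM.

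Acvrl1, the type I receptor that Eng serves, did not follow Eng. It was above 1 TPM in no day-14 cell, in 4 of 18 day-17 cells (22.2%, 6.41 to 47.6%) at 6.08 to 21.5 TPM, and in no day-21 cell. One of the 4 day-17 cells was a cell with stromal Pdgfra, and the share was 18.8% without those cells. Eng and Acvrl1 were found together in 44 of 65 iHECs (67.7%, 54.9 to 78.8%), in 0 of 21 day-14 cells, in 3 of 18 day-17 cells and in 0 of 56 day-21 cells. At day 14 all 16 cells with Eng lacked Acvrl1.

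Tgfbr1 moved the other way from the endothelial receptors. It was above 1 TPM in 20 of 65 iHECs (30.8%, 19.9 to 43.4%), in 14 of 21 day-14 cells (66.7%, 43 to 85.4%), in 16 of 18 day-17 cells (88.9%, 65.3 to 98.6%) and in 53 of 56 day-21 cells (94.6%, 85.1 to 98.9%). The interval in iHECs overlaps that at day 14 by less than 1 percentage point and lies below those of day 17 and day 21. Its mean log2(TPM + 1) was 1.24 ± 1.89, 2.02 ± 1.48, 2.98 ± 1.49 and 3.55 ± 1.51 in the same order. Each step was smaller than the SD between cells, and the first of 0.78 was smaller than the median shift of all genes, 0.93. The last step, 0.56, went against a median shift of −0.74.

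Tgfbr2, the type II partner of Tgfbr1, was detected in a large share of cells in every group, at a lower level in iHPCs than in iHECs. It was above 1 TPM in 42 of 65 iHECs (64.6%, 51.8 to 76.1%), 11 of 21 day-14 cells (52.4%, 29.8 to 74.3%), 15 of 18 day-17 cells (83.3%, 58.6 to 96.4%) and 26 of 56 day-21 cells (46.4%, 33 to 60.3%). All neighbouring intervals overlap, those of the last step by less than 2 percentage points. Its mean log2(TPM + 1) was 3.38 ± 2.70, 1.45 ± 1.47, 2.45 ± 1.45 and 1.79 ± 1.98. Among the 48 iHECs with at least 4000 genes above 1 TPM its share was 81.3%, and its difference to day 14 was then −2.73 and past 4-fold. Bmpr2 stayed rare, in 3 of 21, 1 of 18 and 2 of 56 iHPCs, and the day-17 cell was a cell with stromal Pdgfra.

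**Figure D2:**
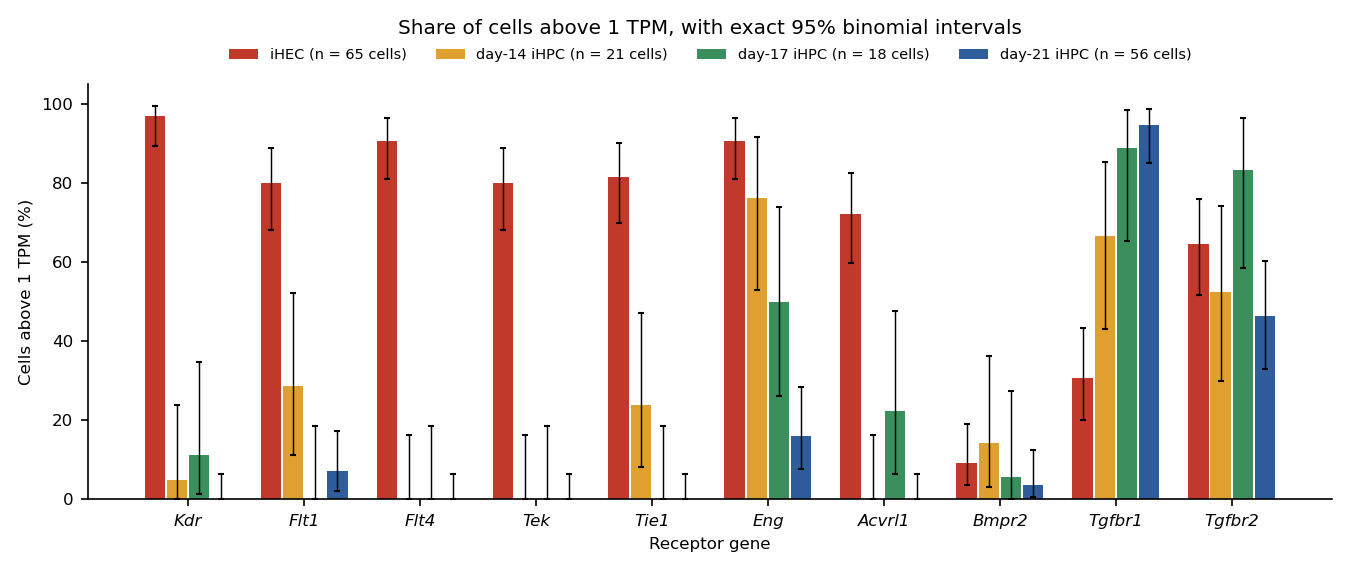
Share of cells above 1 TPM (vertical axis, percent, from 0) for each receptor gene (horizontal axis) in iHECs, day-14, day-17 and day-21 iHPCs, with bars for the share and lines for the exact 95% binomial interval. Flt4 and Tek have no bar in any iHPC group, Eng steps down from 90.8% to 16.1%, and Tgfbr1 climbs from 30.8% to 94.6%.

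In the later steps no receptor differed by 2 or more. From day 14 to day 17, 0.620% of the 9674 genes were lower and 2.76% higher by as much. From day 17 to day 21, 7.76% were lower and 0.755% higher, with a median shift of −0.74. The differences among receptors in the later steps ran from −0.89 (Eng) to 1.0 (Tgfbr2) and from −1.27 (Eng) to 0.56 (Tgfbr1).

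The share of cells with both members of a receptor pair above 1 TPM also changed over the series. Tgfbr1 and Tgfbr2, which together form the TGF-beta receptor, were both above 1 TPM in 14 of 65 iHECs (21.5%, 12.3 to 33.5%), 9 of 21 day-14 cells (42.9%, 21.8 to 66.0%), 14 of 18 day-17 cells (77.8%, 52.4 to 93.6%) and 26 of 56 day-21 cells (46.4%, 33 to 60.3%). In iHECs the missing partner was usually Tgfbr1, as 28 cells had Tgfbr2 alone and 6 had Tgfbr1 alone. At day 21 it was Tgfbr2, as 27 cells had Tgfbr1 alone and none had Tgfbr2 alone. No count expected from the shares of each gene was computed, and across iHECs the rho of Tgfbr1 with Tgfbr2 was 0.05. Across iHECs the rho with the number of genes above 1 TPM was 0.62 for Tgfbr2 and 0.07 for Tgfbr1. Across day-21 cells it was 0.21 for Tgfbr2 and 0.13 for Tgfbr1. Whether a partner was missed in sparse cells was not tested. Acvrl1 was joined by Bmpr2 in 5 iHECs only, and by at least 1 of Bmpr2, Acvr2a and Acvr2b (the type II receptors for BMPs and activins) in 21 of the 47 iHECs with Acvrl1.

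The number of the 10 receptors per cell had a median of 7 in iHECs (range 3 to 10), 3 at day 14 (0 to 5), 2 at day 17 (1 to 6) and 2 at day 21 (0 to 3). Of the 65 iHECs, 23 had 8 receptors, 14 had 7 and 10 had 5. One iHEC had all 10, among them Bmpr2 at 4.69 TPM and Tgfbr1 at 21.4 TPM, and the iHEC with the fewest had Kdr, Tek and Eng. The 7 receptors that were lower past 4-fold at day 14 were all above 1 TPM in 27 iHECs (41.5%, 29.4 to 54.4%) and in none of the 95 iHPCs. The ranges of iHECs and iHPCs overlap at 3 to 6. The day-17 cell with 6 receptors was a cell with stromal Pdgfra, and it had 9658 genes above 1 TPM, the most of all 160 cells. Across iHECs, the number of receptors had a Spearman's rho of 0.57 with the number of genes above 1 TPM.

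**Figure D3:**
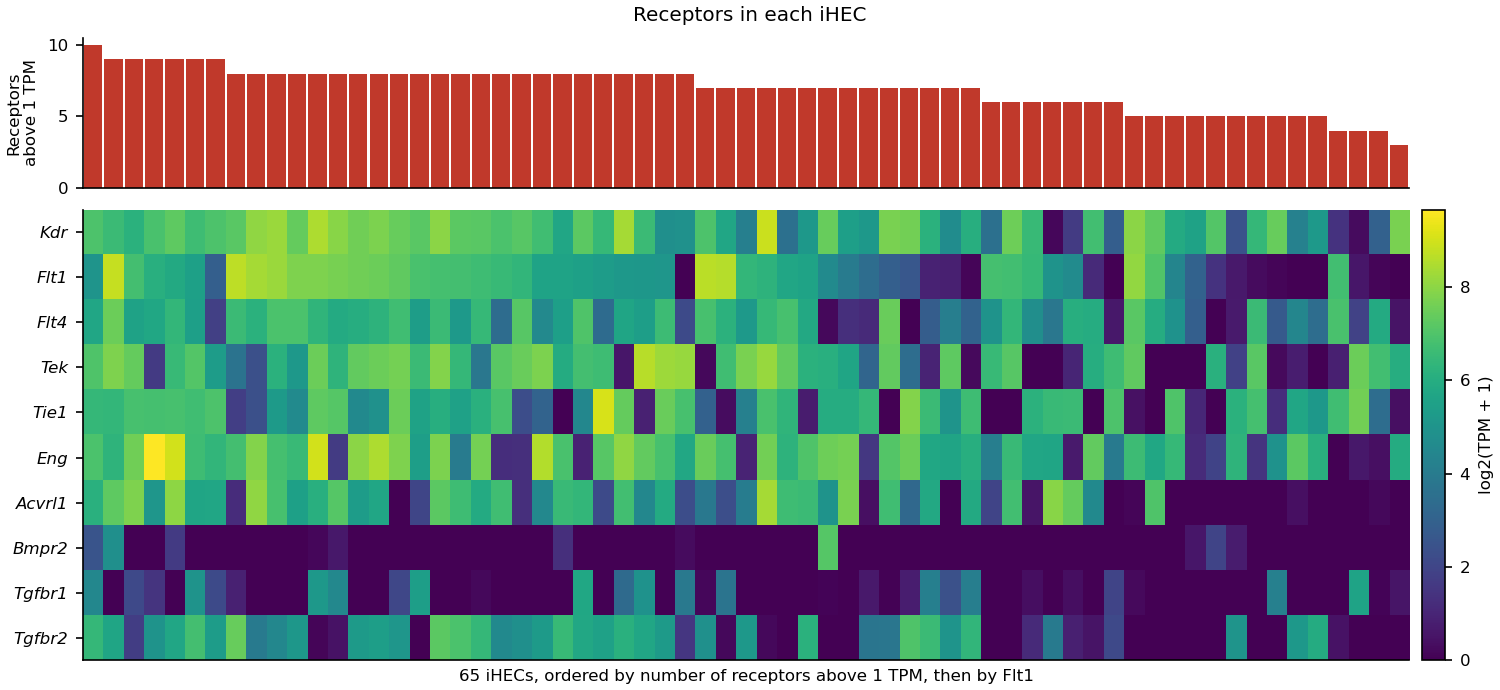
The 65 iHECs (columns) ordered from the most to the fewest receptors above 1 TPM, with that number as bars from 0 (upper panel) and log2(TPM + 1) of each receptor as color (lower panel). Kdr is present across nearly the whole row, while Acvrl1 and Tgfbr2 are mostly absent from the cells with the fewest receptors.

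Across the 65 iHECs, most of the higher correlations between receptors lay among Kdr, Flt1, Flt4, Eng and Acvrl1. All points share a library per cell and TPM scaled to the same total, and the values are descriptions with no test. Over the 45 pairs of receptors, Spearman's rho of TPM had a median of 0.09, from −0.17 to 0.65, and 11 pairs were at or above 0.263. That is the 95th percentile of the 46238536 pairs among 9617 genes above 1 TPM in at least 10% of iHECs, for which the median was 0.03. Tie1 with Tgfbr1 and Acvrl1 with Tgfbr2 lay just below it, at 0.262 each. The highest of the 45 pairs was Flt1 with Flt4 (0.65), both of them VEGF receptors. Flt4 ranked 3rd among the 9616 other genes by its rho with Flt1. Both were above 1 TPM in 49 iHECs, Flt1 alone in 3, Flt4 alone in 10 and neither in 3.

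Of the other 10 high pairs, 5 joined a VEGF receptor to Eng or Acvrl1, 2 lay within the VEGF receptors, 1 was Acvrl1 with Eng, and 2 involved Tgfbr2 or Tek. They were Kdr with Eng (0.49), Kdr with Flt1 (0.45), Flt1 with Acvrl1 (0.40), Acvrl1 with Eng (0.37), Flt4 with Acvrl1 (0.34), Tgfbr2 with Eng (0.34), Kdr with Flt4 (0.34), Flt4 with Tek (0.32), Kdr with Acvrl1 (0.32) and Flt1 with Eng (0.29). Eng ranked 10th among all genes by its rho with Kdr. The median of Kdr was 125 TPM in the 52 iHECs with Flt1 above 1 TPM and 28.7 TPM in the 13 without.

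Tek and Tie1, although they form a receptor pair, had a rho of 0.08, near the median of all gene pairs. Tie1 had values from −0.15 to −0.09 with Kdr, Flt1 and Flt4. Tgfbr1 and Tgfbr2 had 0.05, and Tgfbr1 had −0.17 with Flt4 and −0.14 with Flt1. Tgfbr2 had a rho of 0.62 with the number of genes above 1 TPM, whereas the other 9 receptors had values between −0.22 and 0.27. With that number held constant in ranks, Flt1 with Flt4 had 0.66, Kdr with Eng 0.51 and Tek with Tie1 0.04. Pairs with Tgfbr2 changed more, as Flt4 with Tgfbr2 went from 0.10 to 0.31 and Acvrl1 with Tgfbr2 from 0.26 to 0.16.

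**Figure D4:**
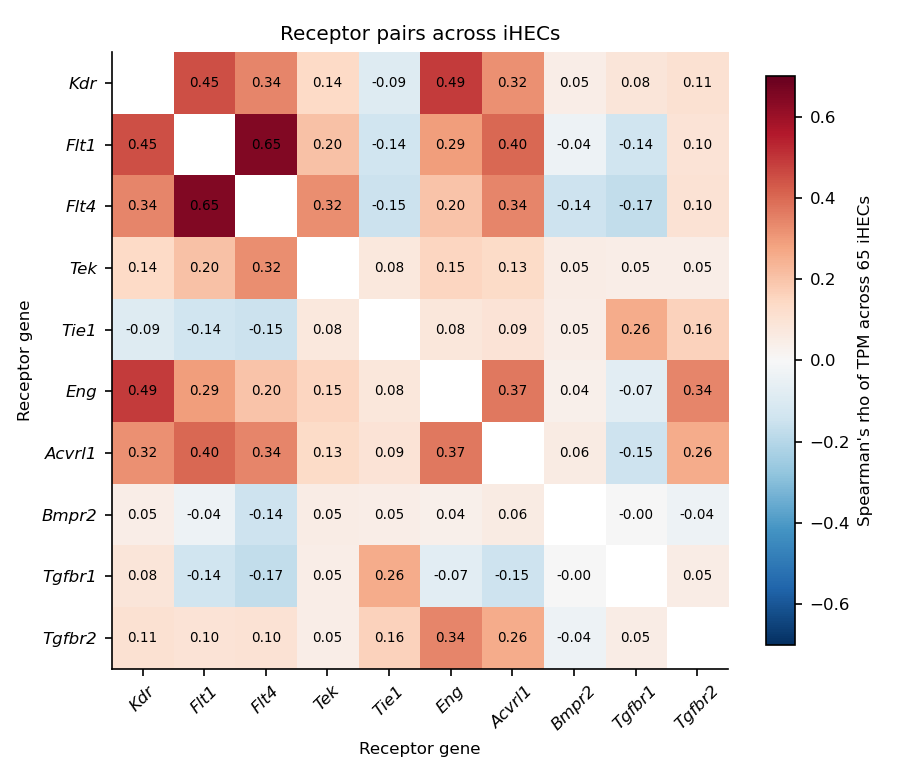
Spearman's rho of TPM across 65 iHECs for each pair of receptor genes (both axes), with red for positive and blue for negative values. The block of Kdr, Flt1 and Flt4 is positive at 0.34 to 0.65 and extends to Eng and Acvrl1, while Tie1 and Tgfbr1 are near 0 or negative with the VEGF receptors.

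Within iHECs, Flt1 and Kdr had lower medians in the cells with the blood factor Sfpi1, which is given as a description with no test. Sfpi1, which encodes PU.1, a factor of myeloid and lymphoid development, was above 1 TPM in 23 of 65 iHECs, and its rho was −0.52 with Flt1, −0.38 with Kdr and −0.35 with Flt4. Among the 9616 genes compared with Flt1, 13 had a lower rho than Sfpi1. Flt1 was above 1 TPM in 15 of the 23 iHECs with Sfpi1 (median 7.25 TPM) and in 37 of the 42 without (median 88.6 TPM). Kdr was above 1 TPM in 22 of 23 (median 46 TPM) and in 41 of 42 (median 140 TPM). Acvrl1 also had a negative rho with Sfpi1 (−0.28). The values for Tek (−0.04), Eng (−0.10), Tie1 (0.14), Tgfbr1 (0.06), Bmpr2 (0.20) and Tgfbr2 (0.03) lay nearer to 0. With Itga2b, which encodes the sort marker CD41, the rho was −0.37 for Flt1 and −0.34 for Flt4 and 0.24 for Tie1. With Pecam1 (CD31, also a sort marker) it was 0.54 for Flt1 and 0.44 for Flt4. Runx1 and Hoxa9, whose TPM may include the inserted copies, had their highest values with Eng (0.35 and 0.36) and values between −0.18 and 0.30 with the others.

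The genes most like the receptors were named by Pearson's r of log2(TPM + 1) with the mean over the 10 receptors. Across 160 cells these were Igf2 (0.92), a growth factor, Efna1 (0.91), an ephrin ligand, Cdh5 (0.91), Ptrf (0.91), a coat protein of caveolae, and Col4a2 (0.90), a collagen of basement membranes, against a median of −0.15 over 9665 genes. Across the 65 iHECs alone they were S1pr1 (0.64), the receptor for sphingosine-1-phosphate, Map4k4 (0.62), a kinase, Epas1 (0.61), a hypoxia-inducible factor, Notch4 (0.60), an endothelial Notch receptor, and Igf2 (0.59), against a median of 0.08 over 9498 genes.

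Ligands were read from the same cells. Of 16 ligand genes, 2 were lower and 1 higher by at least 2 from iHECs to day 14, with a median of −0.05 against 0.93 for all genes. Of the 9674 background genes, 5.63% were lower and 25.7% higher by as much. Vegfa, the main ligand of Kdr, was above 1 TPM in 54 of 65 iHECs, 12 of 21, 4 of 18 and 7 of 56 iHPCs, a difference of −2.71 from iHECs to day 14. All 54 iHECs with Vegfa also had Kdr, which was above 1 TPM in 63 of all 65 iHECs. Bmp2 was lower by a difference of −2.37. Angpt1, the activating ligand of Tek, was higher by 2.1 and was above 1 TPM in 6 of 65 iHECs, 13 of 21, 15 of 18 and 53 of 56 iHPCs. Angpt1 was thus most widespread at day 21, where Tek was at 0. The 2 were together in 5 of the 6 iHECs with Angpt1, and Tek was above 1 TPM in 52 of all 65 iHECs. In iHPCs they could not be counted together, as Tek was above 1 TPM in none. Gdf2 and Bmp10, which encode the BMP9 and BMP10 ligands of Acvrl1, were listed at 0 in all 160 cells, as was Tgfb3. Tgfb1 was above 1 TPM in 13 of 65 iHECs, 15 of 21, 17 of 18 and 40 of 56 iHPCs. Tgfb1, Tgfbr1 and Tgfbr2 were all above 1 TPM in 1 of 65 iHECs, 8 of 21, 13 of 18 and 21 of 56 iHPCs.

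Of 11 co-receptors and further receptors, 3 were lower by at least 2 from iHECs to day 14 and none was higher, with a median of −0.03. The shares among the 9674 background genes were 5.63% lower and 25.7% higher. Nrp1, the neuropilin that binds VEGF beside Kdr, differed by −3.52 (47 of 65 iHECs, 4 of 21 day-14 cells). Tgfbr3 (betaglycan), which presents TGF-beta to Tgfbr2, differed by −2.79 (46 of 65, 3 of 21). Ptprb, the phosphatase that acts on Tek, differed by −2.37 and was above 1 TPM in 40 of 65 iHECs and listed at 0 in every iHPC, as Flt4 was. Acvr2b went the other way, in 10 of 65 iHECs, 13 of 21, 16 of 18 and 22 of 56 iHPCs.

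The SMAD genes, which carry the signal of the BMP/TGF-beta receptors, did not follow the receptors. None of 8 was past 4-fold from iHECs to day 14, against 5.63% lower and 25.7% higher among background genes, and the median was 0.09. The widest differences were 1.08 for Smad2, which serves TGF-beta and activin receptors, −1.03 for Smad6, an inhibitor, and −0.33 for Smad3. From day 17 to day 21 Smad1, which serves BMP receptors, differed by −2.79 (15 of 18 and 12 of 56 cells). It was the only 1 of the 8 past 4-fold, and 7.76% of background genes were lower by as much. All 8 were lower, but their median of −0.82 was near the median shift of −0.74 over background genes. Smad9, among the 8, was above 1 TPM in no cell.

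Of 9 target genes, 3 were lower by at least 2 from iHECs to day 14 and none was higher, with a median of −0.89. Background genes were lower by as much in 5.63% and higher in 25.7%. Id3, a target of BMP-SMAD signalling, differed by −3.51 to day 14 and was above 1 TPM in 51 of 65 iHECs, 13 of 21, 18 of 18 and 4 of 56 iHPCs. Skil, a feedback inhibitor of TGF-beta, differed by −2.56, and Tmem100, a target of Acvrl1, by −2.22 (26 of 65 iHECs and 1 of 21, 0 of 18 and 0 of 56 iHPCs). Id2 was above 1 TPM in all 56 day-21 cells and differed by 4.39 from day 17, whereas Id1 differed by −3.34 from day 14 to day 17. The Id genes have other inputs beside BMPs, and ligand activity was not measured.

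**Figure D5:**
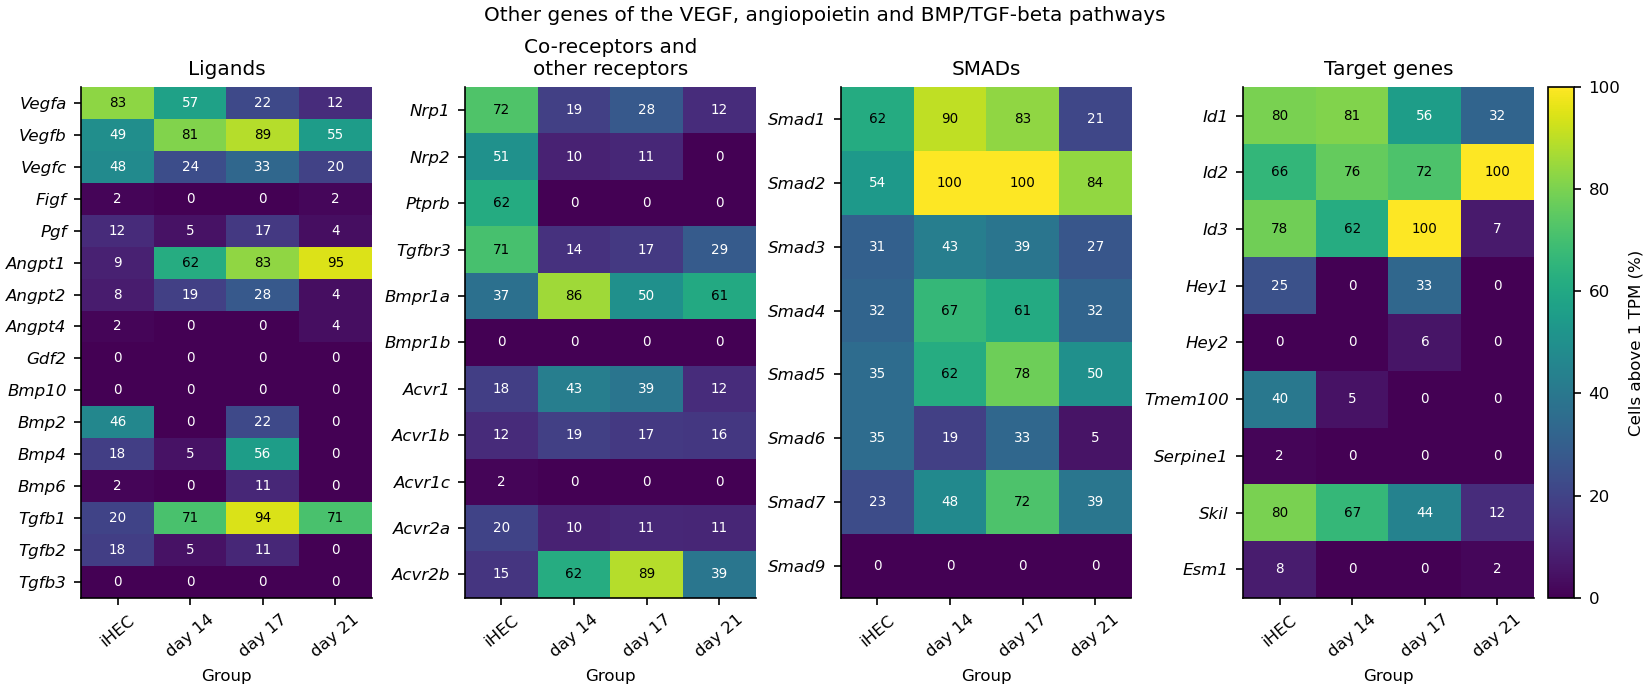
Share of cells above 1 TPM (percent, as color and number) for 16 ligands, 11 co-receptors and other receptors, 8 SMADs and 9 target genes (rows) in iHECs, day-14, day-17 and day-21 iHPCs (columns). Vegfa, Nrp1, Ptprb, Tgfbr3, Skil and Tmem100 are highest in iHECs, Angpt1 climbs with the day, and Gdf2, Bmp10 and Tgfb3 are at 0 throughout.

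Receptors that blood progenitors use were counted in the same way. Of 10 such genes, 3 were higher by at least 2 from iHECs to day 14 (Csf1r by 4.81, Flt3 by 4.38 and Csf2ra by 2.38) and none was lower. That share is near the 25.7% of all genes that were higher by as much, and the list's median of 0.22 lies below the 0.93 of all genes. From day 14 to day 17, 1 was higher (Il7r by 4.55, the gene of CD127, the sort marker of day 21). In that step 2 were lower, Csf1r (−3.46) and Csf2rb (−3.38). Of all background genes, 2.76% were higher and 0.620% lower by as much. From day 17 to day 21, 1 was lower (Flt3, −2.02) and none higher, against 7.76% lower and 0.755% higher among background genes. Kit, a sort marker of the iHECs and of day 21, was found above 1 TPM in 48 iHECs and, by day, in 18 of 21, 16 of 18 and 52 of 56 iHPCs.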

How the data were processed

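Single sorted cells of 4 groups were profiled by polyadenylated RNA sequencing, and groups were taken from the labels (65, 21, 18 and 56 cells). Per the labels and the methods, the authors amplified cDNA with a Discover-sc WTA kit, made libraries with a TruePrep kit, aligned reads to mm10 with HISAT2 2.1.0 and estimated TPM with StringTie 1.3.4. SAMtools 0.1.19 and bcl2fastq are also named. Labels and methods differ in the sequencer they name. The deposited TPM values stood in a table of 23420 rows and 160 cells, of which 0 columns were unused. A cell summed to 988686 to 999108 TPM, so depth is unknown, a rise of some genes lowers the others, and no count model was used. The use of molecular tags is not given in the sources used here. No 2 cells held identical values, but some neighbouring cells were close, and the pairs named here are examples. iHEC_32 and iHEC_33 had Kdr at 190 and 213 TPM, Tek at 163 and 180 TPM and Cdh5 at 101 and 107 TPM. iHEC_5 and iHEC_6 had Kdr at 65.8 and 70.6 TPM, Tie1 at 99.0 and 96.2 TPM and Cdh5 at 94.0 and 94.1 TPM. D17_10 and D17_11 had Tgfbr1 at 30.1 and 30.4 TPM and Eng at 22.5 and 23.0 TPM. Whether such cells are repeat libraries of 1 cell was not tested. Counts, intervals and rhos take each as a cell of its own.

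The receptors and all gene lists were chosen with earlier results of these data known. The scale was log2(TPM + 1), its pseudocount being 1, and a cell counted for a gene above 1 TPM. Genes that passed this in more than 30 cells (9674) gave the background. Calls are a difference of means of at least 2 on the log2 scale, later minus earlier. Shares have exact Clopper-Pearson 95% intervals, and a count of 0 allows 3 cells of the total. Cells are not replicates and each group is 1 sample, so there is no p-value and no standard error. No cell was left out and no doublet caller was run. Named were all 10 receptors, the 3 genes of largest absolute difference from iHECs to day 14 in each of 4 pathway lists (44 genes), the 10 blood receptors by counts, and the 5 genes of highest r with the receptors' mean over 160 cells and over iHECs. Other genes, such as Tgfb1, Acvr2b, Smad1, Id1, Id2 and Sfpi1, and the day-17 cells with Pdgfra were singled out after their values were seen. Of the listed genes, 2 hemoglobin genes had no row of that name. Erythroid markers were above 1 TPM in 1 of 65 iHECs and 2, 2 and 3 iHPCs by day, and megakaryocyte markers in 36, 12, 1 and 4 cells. Promoters came from RefSeq (GRCm38.p6) and positions from GENCODE (GRCm38). Proteins were not analysed here. Steps were tested on made-up cells with known differences. Alternatives were a limit of 0 or 10 TPM, cells with at least 4000 genes, a pseudocount of 0.1 or 10, median-of-ratios size factors over 467 genes, centring on the median gene, no filter, other correlations and, added after the data had been seen, 2 sets of cells left out. Python 3.11.15, numpy 2.4.6, pandas 2.3.3, SciPy 1.17.1 and matplotlib 3.10.9 were used.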

Additional observations from a re-analysis of the deposited data

How the results depend on the processing

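No paired analysis was possible because cell numbers only name cells, no cell was measured at more than 1 time, and the results come from no test. Of the 10 receptors, the number above the limit in at least 50% of cells was 8, 3, 3 and 1 in the 4 groups in order of time. At a limit of 10 TPM it was 0 at day 14 and 0 at day 17, and at a limit of 0 TPM it was 4 at day 17 and 2 at day 21. It was 8 in iHECs under each limit. The mean difference over the 10 receptors from iHECs to day 14 was −3.21, against −4.68 with a pseudocount of 0.1 and −1.74 with 10. From day 17 to day 21 it was −0.29, against 0.45 relative to the median gene. The number of receptors lower past 4-fold from iHECs to day 14 was 7 with size factors and with either set of cells left out, and 8 with a pseudocount of 0.1, among cells with at least 4000 genes and relative to the median gene, where Tgfbr2 joined the 7. With a pseudocount of 10 it was 6. From day 17 to day 21, Eng passed 4-fold (−2.43) with a pseudocount of 0.1. No called difference changed sign under these alternatives. The median receptors per iHEC was 7, between 6 and 8 under the other limits and cells, and the median rho over 45 pairs was between 0.05 and 0.12 under the other correlations and among cells with at least 4000 genes above 1 TPM. Read depth is not known for any cell, so low shares may be missed transcripts.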
